A study of Mus musculus with 2 samples.

Results

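A total of 452 stretches of RNA signal lay inside an annotated gene, on the strand of that gene, and touched none of its exons. They are contigs, continuous runs of aligned sequence that the authors called from polyadenylated RNA of the embryonic mouse central nervous system. A contig was kept when its level was at least 1 aligned base per kb of contig and per 1000000 aligned bases, and its irreproducibility score was at most 0.1. It also had to lie fully within a gene of the deposited mm9 Ensembl gene table, and no exon of its own strand could overlap it. Of 858138 contigs in the table, 38829 passed the level and score, and the 452 intronic ones made up 1.16% of these. The remainder comprised 35422 contigs over exons of their strand, 956 over a gene of the opposite strand only, and 1999 elsewhere. The RNA came from C57BL/6J mouse embryos at day 18, from littermates of mixed sex, and the labels name no mutation and no treatment. The study holds 1 group of 2 libraries, biological replicates 1 and 2, so no conditions were compared and the data describe levels at this age. The libraries were stranded pairs of 101 nt reads from rRNA-depleted, poly-A-selected RNA longer than 200 nt. The labels do not say how many embryos each library pooled. Any p-value here sets the difference in reads between 2 replicates against counting error only, and such a difference may be technical. Members were chosen by measured values, the level and the score, so these are given as descriptions without a test.

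Introns are removed from the pre-mRNA during splicing and are normally degraded quickly, so mature polyadenylated RNA holds little of them. Same-strand signal in an intron can come from pre-mRNA that is not yet spliced, from an exon that the annotation lacks, from an alternative first or last exon, or from a separate transcript within the gene. Neural genes are known for very long introns and for microexons, very short exons that neurons include at high rates. A splice junction is read by a fragment whose alignment jumps across an intron, and it gives the donor, the last exon base before the intron, and the acceptor, the first exon base after it.

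The sequences that carry the clearest splicing result belong to exons that a later annotation holds inside these contigs. The deposited coordinates are on mm9, whose genome was not used here, so a junction was matched by host gene and by the exact length of its intron to GENCODE M21 on GRCm38. The Pcdh11x contig, at chrX:117924749-117924832 of mm9 on the plus strand, matched a coding exon of 24 nt with an intron of equal length on each side (84440 and 94534 nt). That exon lies at chrX:120811140-120811163 of GRCm38. It is shown in capitals between the last 30 and first 30 bases of its neighbouring exons, from transcript ENSMUST00000192677.5, and its 8 codons leave the reading frame unchanged.
Pcdh11x: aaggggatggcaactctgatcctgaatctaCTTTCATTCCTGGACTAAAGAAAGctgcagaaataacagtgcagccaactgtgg
The Mlip contig matched a coding exon of 1545 nt and a shorter form of 1470 nt, which differ by 75 bases at the 5′ end (chr9:77230955-77231029 of GRCm38, minus strand). The bases of the longer form only are in capitals, followed by the first 30 of the shorter one, from transcript ENSMUST00000183955.7.
Mlip: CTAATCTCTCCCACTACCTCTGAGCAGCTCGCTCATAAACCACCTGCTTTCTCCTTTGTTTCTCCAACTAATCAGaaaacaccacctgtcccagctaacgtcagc
Firre, a long noncoding RNA gene of the X chromosome known for a repeated RNA domain, held contigs that matched 10 of the 20 exons of transcript ENSMUST00000203933.2. Exons 5, 9, 10, 14 and 16 of that transcript are near-copies of each other, and 3 of them are printed with the longest stretch that all 5 share, 38 bases, in capitals. They lie at chrX:50612705-50612850, chrX:50600744-50600898 and chrX:50581403-50581556 of GRCm38, on the minus strand.
Firre exon 5: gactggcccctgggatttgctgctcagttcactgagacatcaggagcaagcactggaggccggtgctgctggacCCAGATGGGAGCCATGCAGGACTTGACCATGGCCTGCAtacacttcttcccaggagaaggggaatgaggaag
Firre exon 9: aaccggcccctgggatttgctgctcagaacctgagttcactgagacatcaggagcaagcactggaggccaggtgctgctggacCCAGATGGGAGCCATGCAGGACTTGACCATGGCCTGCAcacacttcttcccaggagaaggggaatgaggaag
Firre exon 14: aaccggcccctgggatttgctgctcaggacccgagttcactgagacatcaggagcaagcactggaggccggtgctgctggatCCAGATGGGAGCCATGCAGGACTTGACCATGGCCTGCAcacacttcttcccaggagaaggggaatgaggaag
Identity over the aligned length was 92.2% to 98.7% in the 10 pairs of those 5 exons, and 98.7% between exons 14 and 16. Over all 45 pairs of the 10 matched exons the median identity was 53.5%. This measure scores a short exon low against a longer one that contains its bases. Exon 8, of 87 nt, matched exon 9 at 85 bases, yet their identity was 54.8%. Likeness over the full length was thus limited to these 5, and likeness over a part was not measured.

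In the whole file 1226020 junctions were listed, with 48204482 reads in its replicate 1 and 69266527 in its replicate 2. These replicate numbers are those of the junction file and are not tied to libraries 1 and 2 of the gene tables. With a minimum of 10 reads over both replicates, 27 of the 452 contigs (5.97%, 95% Clopper-Pearson interval 3.97% to 8.57%) had a junction end within 5 nt of an edge. A junction end anywhere inside, a measure added after the data were seen, was found in 102 contigs (22.6%, interval 18.8% to 26.7%). In 39 contigs (8.63%, interval 6.21% to 11.6%) the other end of such a junction was a splice site of the Ensembl annotation, and this count too was added after the data were seen. Intervals of contig shares, here and below, treat contigs as independent, although contigs of 1 gene share their source. Intervals of read shares below cover counting error only, since reads are not independent molecules. The 39 contigs carried 60 such junctions, 25 into the contig and 35 out of it, and all 60 had reads in both replicates of the file. In 59 of the 60 the annotated site lay inside the host gene.

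**Figure D1:**
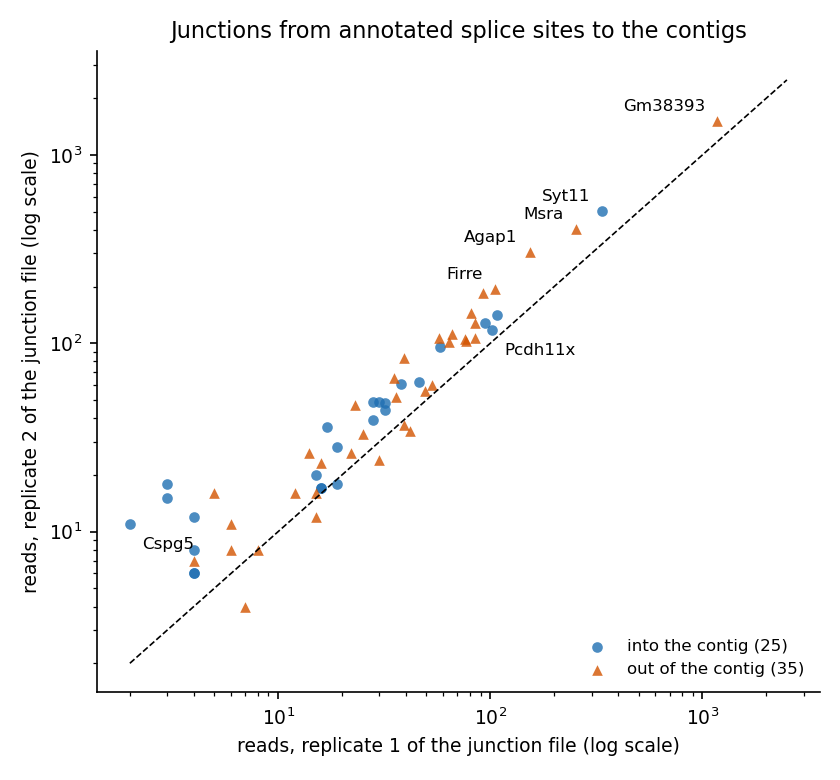
Reads of the 60 junctions that join an annotated splice site to an intronic contig, in replicate 1 (x axis) and replicate 2 (y axis) of the junction file, both on log scales; circles lead into the contig and triangles out of it, and the dashed line marks equal reads. The points run along the line from Cspg5 (2 and 11 reads) to Gm38393 (1176 and 1514 reads), most of them above it, as the file holds more reads in replicate 2.

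Entry and exit at annotated sites were both seen in 4 contigs, in Pcdh11x, Rnf13, Mlip and Firre. Pcdh11x encodes a protocadherin, an adhesion molecule of neurons. Its contig, 84 nt long at level 1.22, was entered by 102 reads in replicate 1 and 118 in replicate 2 and left by 85 and 106. The junction that skips it had 8 and 12 reads. In both replicates far more reads used the 24 nt exon than passed it by, and inclusion (the mean of entry and exit reads over that mean plus the skipping reads) was 92.1% and 90.3%. Of all reads at the upstream donor, 91.1% (interval 84.2% to 95.6%) and 87.4% (interval 80.6% to 92.5%) entered the contig.

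Rnf13 encodes a RING-type ubiquitin ligase of endosomes. Its contig of 218 nt (chr3:57551768-57551985 of mm9, level 1.55) held an exon of 144 nt by its junctions, entered by 46 and 62 reads and left by 36 and 52. The skipping junction had 288 and 442 reads, and inclusion was 12.5% and 11.4%. Of these 2 exons, that of Pcdh11x was thus held in most and that of Rnf13 in few of the reads across it.

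Mlip encodes a protein known to bind A-type lamins and to be abundant in muscle. Its contig of 1796 nt (chr9:77077291-77079086, level 2.39) was entered at 2 acceptors, by 15 and 20 reads for the 1545 nt form and by 16 and 17 for the 1470 nt form. An exit to an annotated acceptor 48088 nt away had 23 and 47 reads, and one to an acceptor 38747 nt away had 15 and 12. Both entry sites had similar reads in each replicate, and the gene stood at 12.1 and 10.7 TPM (the deposited length-normalised transcript abundance of a gene table).

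A contig with exits to annotated acceptors but no annotated entry was found in 20 cases. The most reads were in Gm38393, a gene model whose span in GENCODE M21 holds Snurf of the imprinted Snrpn region. Its contig of 1347 nt at level 2.45 sent 1176 and 1514 reads to an acceptor 48475 nt away, which is 8.50% and 8.29% of that acceptor's reads. Msra encodes methionine sulfoxide reductase A, which repairs oxidised proteins. Its contig of 15105 nt at level 1.05 joined an Ensembl acceptor 103326 nt downstream with 254 and 404 reads, which are 45.1% and 48.0% of the acceptor's reads. GENCODE M21 has an intron of this length behind a first exon of 198 nt. Agap1, an activator of Arf GTPases, had 153 and 304 reads from a contig of 3663 nt, 53.5% and 58.3% of the acceptor's reads.

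Lzts2, a leucine zipper gene, had 81 and 145 reads from a contig of 970 nt. They made up 81.0% (interval 71.9% to 88.2%) in replicate 1 and 96.0% (interval 91.6% to 98.5%) of the acceptor's reads in replicate 2. The intervals do not overlap, but Fisher's exact test over all acceptors of the file gave a Benjamini-Hochberg adjusted p of 0.0595. Nphp4, a gene of the ciliary transition zone, had 53 and 60 reads, 84.1% and 84.5% of the acceptor's reads. In Shisal1 the shares were 76.6% and 68.8% (85 and 128 reads).

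Lower exit shares were seen in Elfn2, which encodes a leucine-rich repeat protein of the membrane, with 43.8% and 36.1% (49 and 56 reads). Nsd1, a histone H3 lysine methyltransferase, had 2 donors within 1 contig of 365 nt that led to the same acceptor. One carried 39 and 83 reads and the other 39 and 37. They were level in replicate 1 (29.3% each), while replicate 2 had 40.9% and 18.2%. Ypel5 had 35 and 65 reads but only 2.24% and 2.99% of the acceptor's reads. In Gap43, the growth-cone protein gene, 8 and 8 reads were 0.039% and 0.029%. In these 2 genes the contig was a small minority of the splicing at the same acceptor.

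Entry from annotated donors without an annotated exit was seen in 15 contigs. Syt11, which encodes a synaptotagmin of vesicle trafficking, had 3 of these. From 1 donor at 88636186 of chromosome 3, 337 and 504 reads entered the nearest contig (30.3% and 30.9% of the donor's reads). A second was entered by 107 and 141 reads (9.61% and 8.65%), and the most distant by 28 and 39 (2.52% and 2.39%). In each of the 3 the share of either replicate fell within the interval of the other.

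Ttbk1, a neuronal kinase that phosphorylates tau, sent 94 and 128 reads into a contig of 7832 nt at level 3.32, 49.7% and 60.1% of the donor's reads. GENCODE M21 has a last exon of 6899 nt behind an intron of the same 6093 nt. Chd9, a chromodomain helicase gene, had 30 and 49 reads into a contig of 265 nt, 73.2% and 69.0% of the donor's reads. In Zfp697 the values were 32 and 44 reads (35.6% and 37.0%). Dram1, a gene of autophagy, had 19 and 28 reads at one acceptor and 16 and 17 at another. In Xkr6, 19 and 18 reads were 57.6% (interval 39.2% to 74.5%) and 36.0% (interval 22.9% to 50.8%), which at this depth cannot be told apart.

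**Figure D2:**
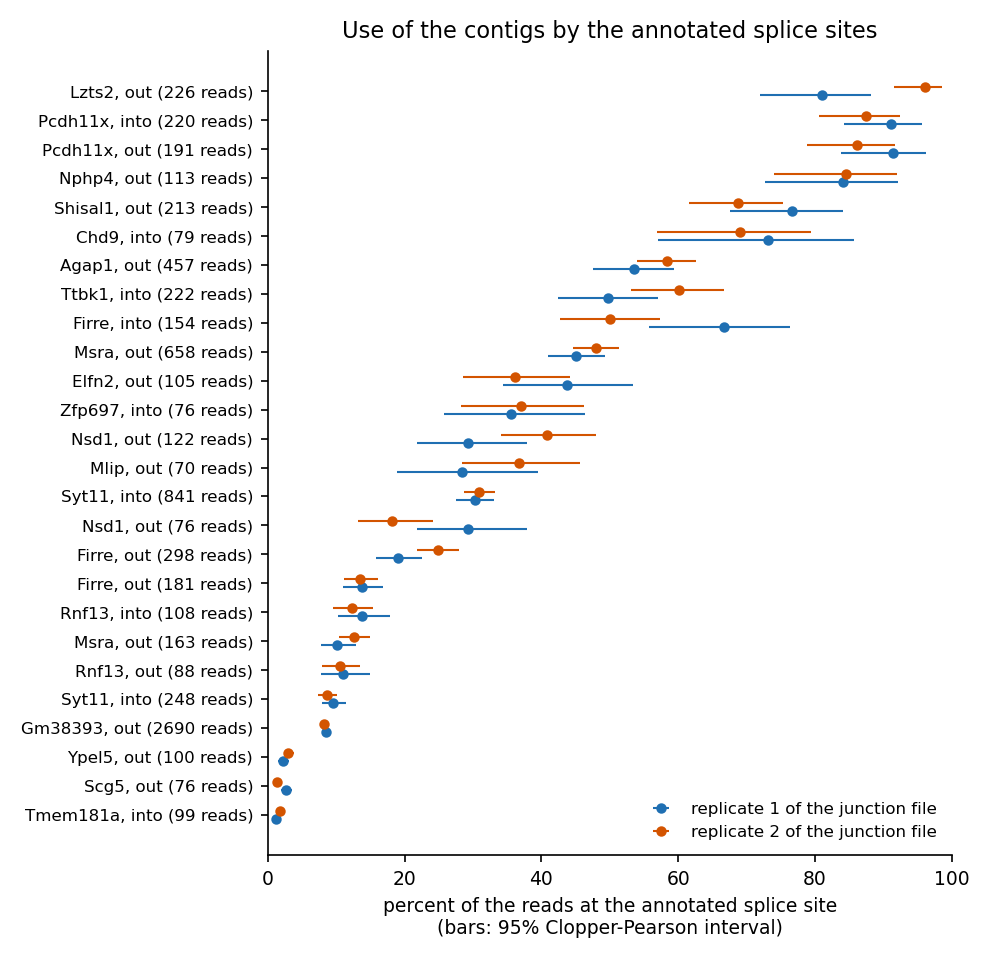
Share of the reads of an annotated splice site that go into or come out of an intronic contig, in both replicates of the junction file. Shown are 26 junctions with 70 or more reads (150 or more in Firre). Junctions on chromosome 18 were left out of the plot, among them that of Ndst1 with 77 and 103 reads. Points are shares and bars are 95% Clopper-Pearson intervals. Lzts2 and Pcdh11x lie between 80% and 100% while Gm38393, with the most reads, lies under 10%.

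GENCODE M21 holds an intron of the same length in the same gene for 18 of the 60 junctions to annotated sites, and for 20 of the 375 other junctions at these contigs. The 18 belonged to 14 contigs, of 38 whose host is in that annotation. Among them the exon was a first exon in Agap1, Nsd1, Msra, Shisal1, Ypel5, Lzts2 and Ndst1, a last exon in Ttbk1, Zfp697 and Chd9, and an internal one in Pcdh11x, Firre, Xkr6 and Mlip. No junction of the contigs in Gm38393, Syt11, Rnf13 and Nphp4 to an annotated site had an intron of equal length there. Further Firre contigs matched through junctions whose other end is not annotated, of 3122, 7077 and 2540 nt among others, and 21 contigs matched in all.

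Firre held 8 contigs in 1 intron-like gap of 50393 nt between its Ensembl exons, and 7 of the 8 were joined to annotated sites. Their levels ran from 1.49 to 4.77, and their lengths from 246 to 3689 nt. The host itself stood at 27.8 TPM in library 1 and 25.7 in library 2. An acceptor at 47918144 of the X chromosome took reads from several of them, 105 and 193 from the contig at 47937798 (19% and 24.8%) and 76 and 105 from that at 47959176 (13.8% and 13.5%). The largest junction ran between unannotated sites, 7077 nt apart, with 638 and 799 reads. Reads from the near-identical exons printed above can align to more than 1 of them, so values of single Firre contigs are uncertain.

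Syt11 held 9 contigs, all within its first intron, in a run of 25382 nt on chromosome 3. Their lengths add up to 23003 nt, which fills 40.3% of the gap between the neighbouring exons, and levels ran from 1.48 to 3.73. The gene stood at 140.0 and 137.1 TPM. Between unannotated sites of this run, 250 and 287 reads joined the contig at 88607365 to that at 88614738. De novo exons of Cufflinks, transcript models that the authors assembled from the reads, overlapped all 9 contigs, and their values (the files call them RPKM) ran from 0.521 to 4.62.

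The share of each junction at its splice site was compared between the replicates of the junction file with Fisher's exact test, two-sided, at 20 or more reads of the site in each, with Benjamini-Hochberg adjustment over all junctions tested. This compares the reads of these replicates, not conditions. Of 211386 junctions in the file 0.124% were called for their donor share, and of the 197 junctions of intronic contigs, in 47 contigs, 4 were (17 at an unadjusted p under 0.05). All 4 belonged to the contig of 14091 nt in Mdga2, an adhesion gene of inhibitory synapses. There a junction of 115 nt had 402 of 665 donor reads in replicate 1 and 598 of 834 in replicate 2 (60.5% and 71.7%, adjusted p = 0.00631 by Fisher's exact test). The competing junction of 173 nt had 262 and 234 (39.4% and 28.1%, adjusted p = 0.00603 by Fisher's exact test). Neither end of these short introns is annotated, and the contig held 29 junctions in all.

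For acceptor shares 0.236% of 196777 junctions were called, and 8 of 243 at intronic contigs (38 at an unadjusted p under 0.05). These were 4 in Mdga2, 3 in Hsd11b1 and 1 in C77080. At 50 or more reads of the site in each replicate, 0.124% of donor and 0.237% of acceptor shares were called in the file, and again 4 and 8 at intronic contigs. In C77080 a junction had 32 reads in replicate 1 and 0 in replicate 2 (32.7% and 0.0% of the acceptor's reads, adjusted p = 1.37e-06 by Fisher's exact test). Of the 60 junctions to annotated sites, 59 could be tested at that site. None was called by Fisher's exact test, 8 had an unadjusted p under 0.05, and the smallest adjusted p was the 0.0595 of Lzts2. The share of all junctions of the file at an unadjusted p under 0.05 was not computed. The unadjusted counts given here and above therefore cannot be set against the file.

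**Figure D3:**
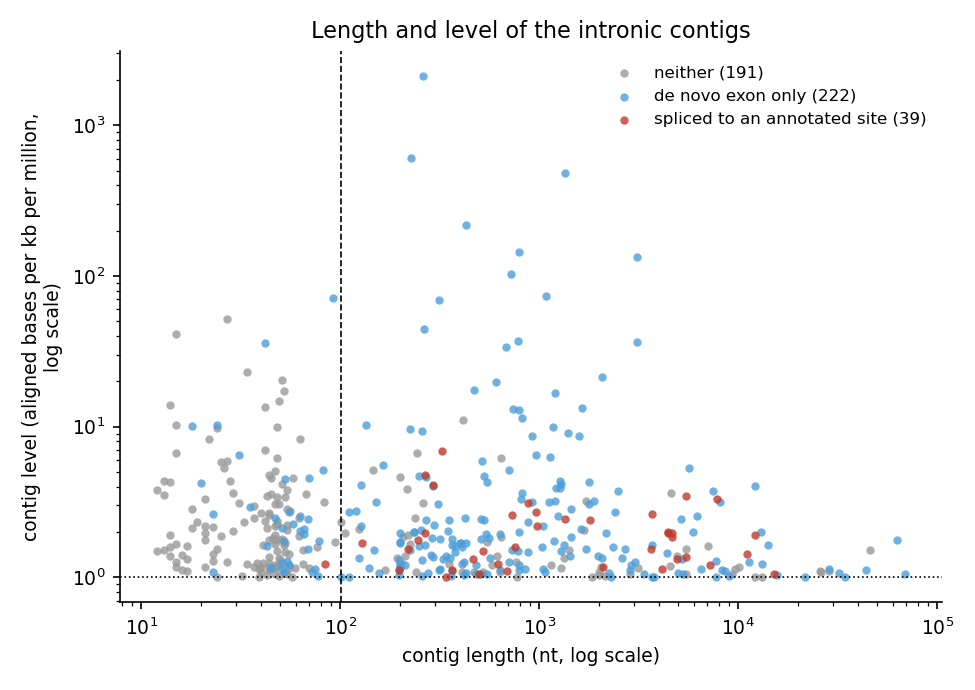
Length in nt (x axis) and level in aligned bases per kb and per 1000000 (y axis) of the 452 intronic contigs, both on log scales; red points are spliced to an annotated site (39), blue ones only overlap a de novo exon (222) and grey ones do neither (191). The dashed line marks the read length of 101 nt and the dotted one the level of 1; grey points crowd to the left of the dashed line and the 10 highest contigs are 92 to 3109 nt long.

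The median level was 1.73, with quartiles of 1.21 and 3.16, and 264 contigs (58.4%) lay under 2 while 37 reached 10. Just inside the threshold were contigs in Cadps, Nkx2-2os and St5 at a level of 1.00. Just outside were contigs in Gm12082, Greb1 and Vopp1 at 0.998. The irreproducibility score was 0 in 414 contigs (91.6%). The contigs nearest to its limit were in Ttpa, Gm765 and Wwox, 12 to 16 nt long with a score of 0.09, and no intronic contig of this level had a score above 0.1.

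Together the 452 contigs covered 986854 nt and held 0.408% of the aligned bases in all contigs. The 4 highest held 35.9% of the contigs' own bases. The highest, at 2130, was 260 nt long (chr17:71312985-71313244, plus strand) in ENSMUSG00000085916, a gene model that GENCODE M21 does not hold and whose own RPKM was 0.000 in both replicates of the mm9 table. Il31ra, the interleukin 31 receptor gene, followed with 603 (227 nt), while the gene stood at 0.10 and 0.11 TPM. Cmss1, a gene of ribosome assembly, had 486 (1352 nt, chr16:57390729-57392080) and 3.73 and 3.45 TPM. Slc22a29, a solute carrier, had 219 (428 nt) and 0.16 and 0.08 TPM. Thus 2 of the 4 highest contigs, those of Il31ra and Slc22a29, lay in genes under 1 TPM in both libraries.

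Ranks 5 to 10 were taken by Tecpr2 (level 144, 792 nt), Gphn (133, 3109 nt), Lpp (103, 725 nt), Camk1d (73.6, 1079 nt), Fmn1 (70.9, 92 nt) and Cd44 (68.9, 315 nt). Gphn encodes gephyrin, the scaffold of inhibitory synapses, and stood at 43.5 and 40.9 TPM. Camk1d, a calmodulin-dependent kinase gene, stood at 10.4 and 9.96 TPM, and Cd44, the hyaluronan receptor gene, at 4.81 and 3.35. The other 10 of the highest 20 had levels from 20.5 to 51.7. They lay in C77080, Spag17, Capn13, Traf5, Ddah1, Timd2, Sv2c, Pard3b, Btbd9 and Zfp386. Ddah1, which breaks down asymmetric dimethylarginine, was the highest of these hosts with 85.7 and 85.1 TPM. Timd2 and Capn13 lay between 0.02 and 0.04 TPM. None of the 20 was joined to an annotated splice site by 10 or more reads.

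The longest contigs lay in long introns of neural genes. The median contig over 10 kb filled 13.9% of its gap between exons and had a level of 1.12. In Auts2, a gene of neural development, 68525 nt at level 1.05 filled 74.4% of the gap between exons in the first intron (chr5:132929724-132998248). In Celf2, a regulator of splicing, 63045 nt at 1.76 filled 42.0% of the first intron's gap (chr2:6698271-6761315). Rbfox1, a neuronal splicing regulator, had contigs of 34399 and 28551 nt in its first intron, at 1.01 and 1.14.

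All 23 contigs over 10 kb lay in hosts detected in both libraries, with a median host level of 32.3 and 30.4 TPM, and 13 of them lay in first introns. These 23 made up 57.9% of the summed length and 18.7% of the aligned bases. None had a junction end at an edge, and 3 were joined to annotated sites (Msra, Xkr6 and Pcdha11). In bulk RNA, fewer cells with the transcript and less of it per cell cannot be told apart.

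**Figure D4:**
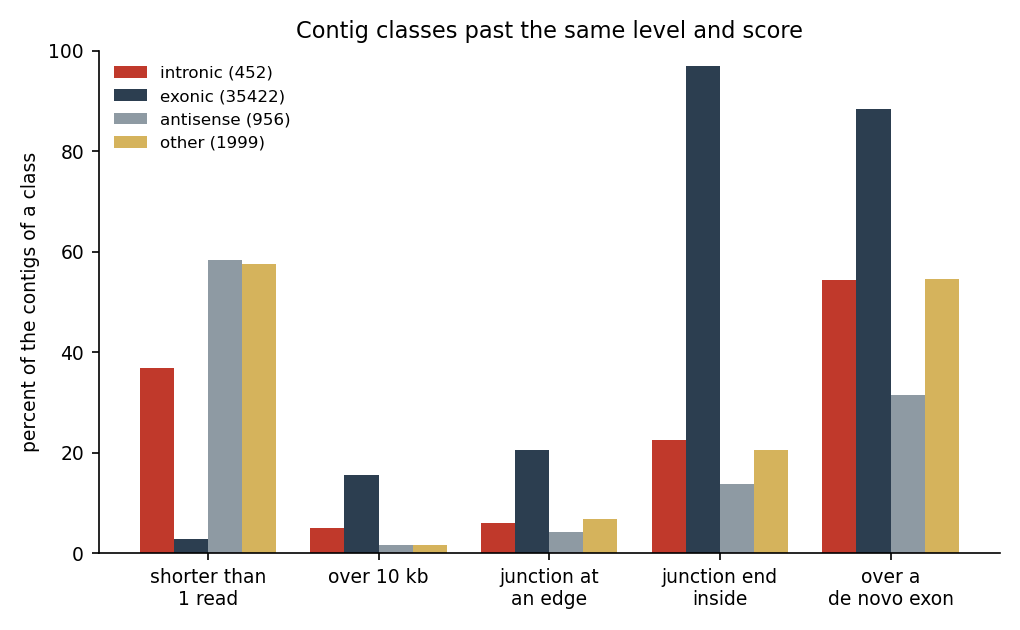
Percent of the contigs of each class that are shorter than 1 read (101 nt), over 10 kb long, have a junction within 5 nt of an edge, have a junction end inside, or overlap a de novo exon of Cufflinks; classes are intronic (452), exonic (35422), antisense (956) and other (1999) contigs past the same level and score. Intronic contigs lie between exonic ones and the antisense and other classes in the share shorter than a read (37.0%, 2.74%, 58.4% and 57.6%) and in the share over 10 kb.

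Beside the exonic contigs, which passed the same level and score, the intronic ones were shorter and less often spliced, as a description without a test. Exonic contigs overlap annotated exons by definition, and a longer contig is more likely to touch an exon and to hold a junction end. Part of these differences thus follows from the rule that set the classes. Median length was 267 nt against 2029 nt, and 167 (37.0%) were shorter than 1 read of 101 nt against 2.74%. A junction end at an edge was found in 5.97% against 20.5%, and one inside in 22.6% against 96.9%. A Cufflinks exon was overlapped by 246 (54.4%, interval 49.7% to 59.1%) against 88.4%. Contigs of the class elsewhere were close to the intronic ones in these shares, with 6.85% for a junction at an edge, 20.6% for one inside and 54.5% for a Cufflinks exon, although their median length was 66 nt. In antisense contigs the shares were 4.29%, 13.8% and 31.5%, and the median length was 64.5 nt.

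Of the 246 contigs with a Cufflinks exon, 208 had that exon above 0 in both replicates of the mm9 file, and in 171 of these its RPKM values were within 2-fold of each other. An RPKM of 1 or more in both was reached in 50. The highest pair was that of Cmss1, with 338.1 and 342.3.

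The contigs shorter than a read differed from the longer ones in several measures. Their median length was 44 nt and their median level 1.93. Only 35 of the 167 overlapped a Cufflinks exon (21%), against 75% of the 160 contigs of 101 nt to 1 kb. At their edges 26 junctions ended, in 16 contigs, with a median intron of 131531 nt. Of these 26 junctions, 1 had an annotated partner, that of Pcdh11x, and 7 had the partner inside the host gene. Such long junctions from very short contigs were the most read at edges in C77080 (27 nt, level 51.7), where 114 and 379 reads spanned 214835 nt. In Ttn, the gene of the muscle protein titin, 131 and 324 reads left a contig of 28 nt and spanned 123062 nt.

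Ttn stood at 0.16 TPM in library 1 and 1.85 in library 2, and 4 skeletal muscle markers (Acta1, Ckm, Mylpf and Myh3) summed to 12 and 437.6 TPM in the same libraries, with none at 0. Their part in this contig was not tested. Among other short contigs, Nrg4, a neuregulin gene, had 147 and 110 reads over 159857 nt. Alk, a receptor kinase gene, had 64 and 136 reads over 131479 nt. In Tspear the values were 122 and 61, in Gm15541 84 and 70, and in Spdye4c 80 and 67. The balance between the replicates thus ran in both directions among these contigs, from more reads in replicate 2 in Alk to more in replicate 1 in Tspear.

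**Figure D5:**
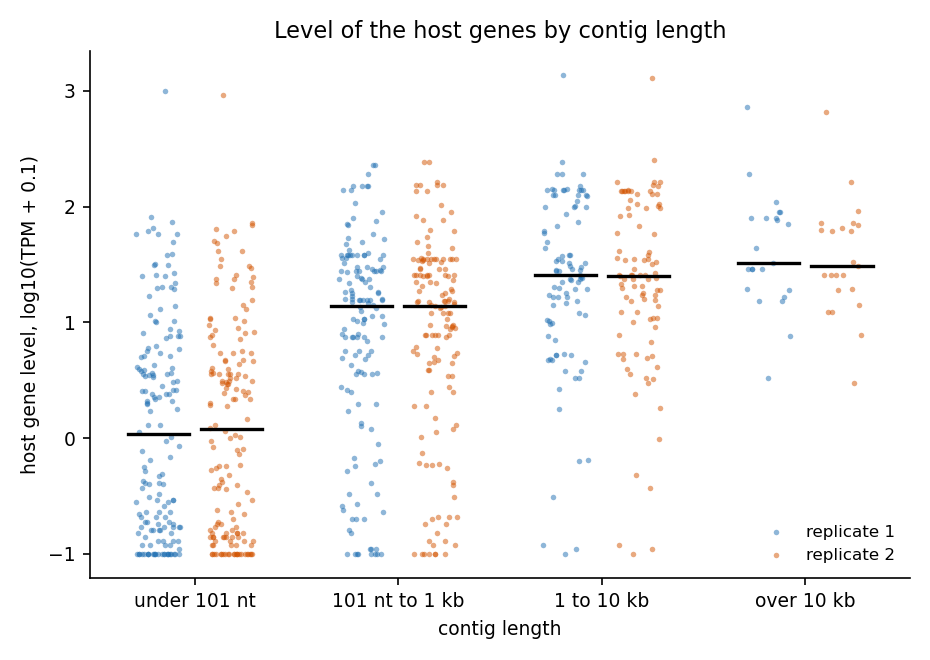
Level of the host gene, as log10 of TPM plus 0.1, for every contig with a host value, by contig length; blue points are library replicate 1, orange points replicate 2 and black bars the medians. Medians rise from 0.985 and 1.09 TPM for contigs under 101 nt to 32.3 and 30.4 TPM for those over 10 kb, and the points of both libraries cover the same range.

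Host levels could be read for 426 contigs. Of these, 309 (72.5%, interval 68.0% to 76.7%) had a host of at least 1 TPM in each library and 113 (26.5%) had one under 1 in both. The share of detected hosts was 49.4% for contigs under 101 nt, 80.1% from there to 1 kb, 93.7% at 1 to 10 kb and 100% above. Median host levels in the 4 length groups were 0.985, 13.8, 25.6 and 32.3 TPM in library 1 and 1.09, 13.7, 25 and 30.4 in library 2. The order of the groups was the same in both libraries.

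Contigs lay in first introns in 146 cases (32.3%), in middle introns in 229 (50.7%), in last introns in 50 (11.1%) and in the only intron in 27 (5.97%), by the host transcript with the most exons. First introns made up 30.4% of the summed intron length of the same transcripts, close to the contigs' share. The median distance to the upstream exon was 7391 nt and to the downstream one 8385.5 nt, and 261 contigs (57.7%) were nearer the upstream exon. Under 1 kb from the upstream exon were 73 contigs, and 71 were as near to the downstream one. The median contig filled 1.72% of the gap between its neighbouring exons, and 13 contigs filled over 50%.

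The 452 contigs lay in 358 host genes, of which 309 had 1 contig, 35 had 2 and 14 had 3 or more. Protein-coding genes were 306 of the hosts and lincRNA genes 14, and 21 hosts were not in GENCODE M21. Most contigs (12) fell in Gm20388, a gene model of 4.43 Mb that holds 53 other genes of its strand, so its contigs cannot be tied to its transcript. Syt11 had 9, Firre 8, Gm3739 6, and Scg5, Celf2 and Tenm2 had 5 each. Gm2897 and ENSMUSG00000078694 had 4. Gm3739 and Gm2897 belong to a family of near-identical gene copies on chromosome 14, and counts of single copies are uncertain. That chromosome held 39 contigs in all, also in hosts outside the family such as Rb1, Nrg3 and Msra.

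Among Rb1, Arfip1, Skap1, 3300002I08Rik and Ctnna2, which had 3 each, the retinoblastoma gene Rb1 carried levels from 3.08 to 4.67. They lay in the only intron of the Ensembl transcript that holds them. In Scg5, which encodes the chaperone 7B2 of prohormone convertase 2, the 5 contigs ran over 13228 nt of the second intron, with levels from 1.22 to 6.85. The one of highest level joined an annotated acceptor with 42 and 34 reads, 2.62% and 1.39% of its reads. Tenm2, a teneurin adhesion gene, had its 5 contigs in the fourth intron, where they covered 56.3% of a gap of 186922 nt at levels from 1.01 to 1.16.

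By gene list, hosts were found in 10 of 13 lists. Of all 37310 genes, 0.96% were hosts, with 0.41 contigs per Mb of gene length. Of 10549 genes with an RPKM of 1 or more in both replicates, 1.48% were hosts, with 0.395 per Mb. None of 41 SR protein, hnRNP and core splicing genes, 40 cell cycle genes or 40 ribosomal protein and translation genes was a host. These lists span only 0.807, 1.43 and 0.292 Mb, so few contigs could fall in them at that density. Neural splicing regulators had 2 hosts of 30 genes, Celf2 and Rbfox1, with 7 contigs or 1.45 per Mb. Celf2 held 5 of the 7, and without it the density was 0.465 per Mb. Celf2 stood at 190.8 and 162.4 TPM and Rbfox1 at 79.9 and 61.0.

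Cytoskeletal genes had 4 hosts of 45, with 8 contigs of a median length of 6344 nt (1.05 per Mb). These were Ctnna2 at 125.9 and 129.3 TPM, a neuronal catenin with 3 contigs of 1409 to 9610 nt, Ctnnd2 with 2, Ank3 with 2 and Gap43 with 1. Without Ctnna2 the density was 0.768 per Mb. The Gap43 contig was 7211 nt long at level 1.20 in the last intron, of a gene at 1381 and 1282 TPM. Synaptic machinery had 3 hosts of 42, Gphn, Syt11 and Snap91, with 11 contigs (0.858 per Mb). Of these, 9 lay in Syt11, and without that gene the density was 0.157 per Mb, a setting added after the data were seen, as are the other densities without a gene.

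Adhesion genes had 5 hosts of 56, among them Tenm2, Nlgn1, Ncam2 and Cdh13, with 10 contigs over a gene length of 35 Mb, or 0.286 per Mb. Tenm2 held 5 of the 10, and without it the density was 0.148 per Mb. Nlgn1, the neuroligin 1 gene, had contigs of 11267 and 1983 nt at levels 1.26 and 1.39. Neural transcription factors had 4 hosts of 55, among them Prdm16, Tcf4 and Auts2, with 5 contigs or 0.35 per Mb. Prdm16, a zinc-finger gene of neural stem cells, had 5909 nt at level 2.00 that began 323 nt after its upstream exon.

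Chromatin regulators had 3 hosts of 48, Chd9, Nsd1 and Auts2, with a contig each (0.464 per Mb), of which 2 were joined to annotated sites. Ion channel and receptor genes had 2 hosts of 63, the channel gene Trpm3 (1581 nt, level 8.61) and the kainate receptor gene Grik1 (7472 nt, level 3.74). Their density was 0.089 per Mb, with a contig in each of these 2 genes. Axon guidance genes had 2 hosts of 43, Dpysl3 and Dcc, each with a contig shorter than a read (0.183 per Mb). Of 46 genes listed as imprinted or as noncoding hosts only 30 were found in the table, and 1 of these was a host, Trappc9 (164 nt, level 5.58). Firre is not in that list, so the count does not speak for noncoding hosts at large. Of 33 muscle, bone and skin genes, Ttn was the host.

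The libraries carry the markers of the labelled tissue. The neuronal markers Tubb3, Stmn2, Dcx, Map2 and Snap25 summed to 4776 TPM in library 1 and 4462 in library 2, and radial glia markers to 1925 and 2120. Markers of choroid plexus summed to 432.4 and 1405, of red blood cells to 766.5 and 533.6, and of skin to 28.3 and 5.69. The gene tables held 97513548 and 142741622 expected counts. The contig levels pool both replicates and cannot be split between them.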

How the data were processed

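The contig file gives a deposited signal per contig, its coverage as aligned bases per kb and per 1000000 aligned bases over both replicates pooled, as inferred from the file's values (level, length and aligned bases give a near-constant total). It also gives an irreproducibility score deposited per contig and the aligned bases. Junctions carry deposited read counts of 2 replicates. Gene tables on mm10 give TPM and expected counts that the authors deposited per library. RPKM values and gene, exon and Cufflinks positions come from mm9 tables of Ensembl release 65 and of de novo models, per the file headers. Which programs aligned the reads, called contigs and estimated TPM is not stated in the labels or file headers read here.

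The rule was applied to the contigs, hosts were named by gene identifier through GENCODE M21 (337 of 358 hosts had a symbol), and a contig in several genes was given the shortest. Junction ends within 5 nt, 10 reads and 20 reads per splice site were the minima. Fisher's exact test with Benjamini-Hochberg adjustment over all junctions used SciPy and was tested on simulated data. Exon sequences were read from the GENCODE M21 transcripts, and identity is from global alignment. Versions were Python 3.11.15, pandas 2.3.3 and SciPy 1.17.1.

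Members and lists were chosen with earlier results of these data known. Named were the 20 contigs of highest level, the 5 longest, the 12 with most edge reads, those beside the thresholds, the 10 hosts with most contigs and up to 4 hosts per list; contigs joined to annotated sites were added after their values were seen. Of 582 list genes 18 were not found. No conditions, batches or pairs exist to be fitted. Alternatives covered thresholds, distances, read minima, each replicate left out and host measures. Results of some items that these rules name are not reported here.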

Additional observations from a re-analysis of the deposited data

How the results depend on the processing

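The number of intronic contigs followed its thresholds most closely. It was 188 at a level of 2 or more and 65 at 5 or more, 206 without contigs over a Cufflinks exon, 227 with hosts at an RPKM of 1 or more in both replicates, and 285 at 101 nt or longer (added after the data were seen). A stricter score, a distance of 50 or 200 nt from exons, no opposite-strand exon, or leaving out Gm20388 (added) gave 415 to 443. The share with a junction at an edge was 1.99% exactly at the edge, 9.74% at 3 or more reads and 5.09% without either replicate of the junction file. Settings added after the data were seen gave 22.6% with a junction end anywhere inside, 8.63% when the other end was annotated, and 3.86% among contigs of 101 nt or longer. Contigs joined to annotated sites numbered 54 at 3 or more reads, 30 at 50 or more, 32 without Firre, and 34 to 35 without either replicate. Overlap with Cufflinks exons was 31.6% when it had to cover 50% or more of the contig. The share in first introns kept within its interval under its alternatives (31.0% and 35.4%). Donor reads entering the Pcdh11x contig were 87.4% to 91.1% without either replicate. Calls at intronic contigs were 4 at 50 or more reads and 8 for acceptor shares. Hosts detected were 72.8% to 73.2% without either library, 50.2% by RPKM of the mm9 table, 56.3% at a TPM of 5 and 86.7% for contigs of 101 nt or longer. No paired analysis was possible because there is 1 group. Depth limits the least-read junctions: with 10 to 20 reads, intervals of their shares are wide where the site itself has few reads, as in Xkr6. Contig levels pool the replicates, so no spread can be given for them.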

Other observations

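GENCODE M21 lists 271 same-strand gene entries inside the hosts that the Ensembl table used here does not hold, in 103 of 337 hosts. Some of these entries are not further genes. Pcdha11 and Nkx2-2os are listed inside hosts of the same name, and Rnu3b1 is listed in Tex14 with lengths of 215 and of 216 nt. Processed pseudogenes, copies of spliced mRNAs without introns, were 51 of them, in 39 hosts. The position of these genes relative to the contigs was not compared, since the builds differ. In Tecpr2, whose contig ranked 5 by level, the ribosomal protein pseudogene Rps19-ps6 stood at 8.93 and 13.69 TPM. In Ift80, Gm20691 stood at 9.21 and 8.78 TPM and Gm18588 at 5.98 and 6.18. In Traf5, Gstp-ps stood at 1.69 and 3.39 TPM, and in Kcnk2, Pdcd5-ps at 1.36 and 3.74. The small nuclear RNA gene Rnu1a1 in Tex14 stood at 23.65 and 43.30 TPM. In Gm20388, the long noncoding RNA gene 2810013P06Rik stood at 16.30 and 15.03 TPM.

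Beside the junction of C77080 given above, edge junctions with reads in a single replicate of the junction file were found in Asap1 (51 and 0 reads), Fbn1 (16 and 0) and Gm2974 (0 and 10).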
